A study of Homo sapiens with 12 samples.

Results

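Described here are 10 genes of the epidermis and the hair follicle in SW480, an established human line of colorectal adenocarcinoma cells: KRT16, KRT6B, KRT33B, KRT34, KRT74, KRTAP2-3, SPRR1B, SPRR2D, CNFN and ALOXE3. They are 10 of the 3699 genes in the deposited table and were picked by symbol because their levels differed from untreated cells under GLY, some upwards and some downwards. Those differences with untreated cells are therefore descriptions and carry no test below. The 12 libraries fall into 4 groups of 3: untreated cells, cells treated with PUE, cells treated with GLY, and cells treated with GLY and PUE together (GLY_PUE). Per the labels' protocols all cells spent 12 h in medium holding 10% serum before fresh medium, with or without treatment, was given for 12 h more, while the labels of the GLY libraries read 12, 13 and 14 h. The cell line label and the protocols name SW480, while the sample descriptions number the line differently in each library and the extraction protocol also mentions retinas. The line is given here as the cell line label states it. The labels give no dose and do not spell out the abbreviations. They do not tell whether replicates were separate cultures, so the p-values below reflect the spread of these libraries alone, and that spread may be technical.

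Keratins are the intermediate filament proteins of epithelial cells and assemble as pairs of an acidic type I and a basic type II chain. KRT6 and KRT16 proteins are low in resting epidermis between hair follicles and rise in wounded or hyperproliferative skin, whereas hair keratins build the hair shaft, where keratin-associated proteins cross-link them. In the outermost epidermis, transglutaminases join small proline-rich (SPRR) proteins, late cornified envelope (LCE) proteins and others into the cornified envelope, an insoluble shell to which barrier lipids are attached. Simple epithelia such as colon make mainly KRT8, KRT18, KRT19 and KRT20, none of which was analysed here.

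The recovered totals were 19.7 to 21.4 M reads per library, and the listed genes held 13.8% to 15.4% of them. All 3699 genes had been selected for a difference in at least 1 of the authors' comparisons of these same libraries, so the table is no random sample of genes. Adjusted p-values of other genes with GLY or GLY_PUE against untreated, given below, therefore retest genes already picked on these libraries. They are no independent support for a difference. Of 16 markers of colon epithelium, 4 were in the table (CDX2, VIL1, LGR5 and ASCL2). Their summed level was 152 to 206 CPM (reads divided by the library total) in untreated libraries, 22.9 to 41.7 with GLY and 24.3 to 27.3 with GLY_PUE. All 4 were lower with either treatment by edgeR's quasi-likelihood test, as were 64.6% of all tested genes with GLY and 57.1% with GLY_PUE. When libraries were scaled to each other within the table (TMM) instead of by total reads, VIL1 was no longer called (log2 fold change -0.15, adjusted p = 0.798 with GLY, and -0.12, adjusted p = 0.804 with GLY_PUE), while the other 3 were. Of them LGR5 was at 0 reads in 1 GLY and 1 GLY_PUE library, and it entered the test only through the libraries without GLY. Of 14 keratinocyte markers only KRT14 and DSG1 were in the table, at a summed 0.542 to 1.46 CPM in untreated libraries and 0.306 to 1.73 with GLY. The sum hides opposite directions. KRT14 had a mean of 0.684 CPM untreated and 1.04 with GLY, and DSG1 had 0.330 and 0.0468, from 20 and 3 reads. The 1 fibroblast marker in the table of 7 listed, PDGFRB, was at 0.838 to 0.995 CPM in untreated libraries and 1.64 to 3.57 with GLY. The 2 leukocyte markers in the table of 6 listed went opposite ways with GLY. CD14 was lower, at a mean of 0.924 CPM untreated and 0.110 with GLY (log2 fold change -3.01), from 56 and 7 reads. It entered the test only through the libraries without GLY, where it was high, so no p-value is given for it. CD68, a lysosomal protein gene, was higher, at 4.80 and 21.4 CPM (log2 fold change 2.16, adjusted p = 5.46e-05 by edgeR). The sums of CD14 and CD68 ran from 4.63 to 6.91 CPM untreated and from 17.1 to 24.4 with GLY. The part of these markers in the results below was not tested. In bulk RNA, a change in the number of cells that make a transcript and a change in RNA per cell cannot be told apart.

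The 10 genes covered a wide range of levels. On the FPKM scale, which allows for transcript length, the untreated order was KRTAP2-3 with a mean of 20.9 ± 11.8 (SD, n = 3), ALOXE3 with 10.5 ± 6.37, SPRR2D with 7.46 ± 3.06, KRT74 with 5.57 ± 2.58 and CNFN with 3.02 ± 1.39. Each of these 5 overlapped its neighbour in that order, and all 5 lay above KRT16 (0.307 ± 0.0379) and KRT6B (0.25 ± 0.0794), which overlapped each other. SPRR1B, KRT33B and KRT34 were at or near 0, with means of 0.0567, 0.0100 and 0.0100. With GLY the order became KRTAP2-3 (152 ± 79.6) and SPRR2D (98.4 ± 36.2), which overlapped, then ALOXE3 (29.5 ± 6.10) and KRT16 (14.4 ± 4.72), each set apart from its neighbours. SPRR1B, CNFN, KRT74, KRT33B and KRT34 followed between means of 1.94 and 0.653, each overlapping the next, and KRT6B was last at 0.05. KRT16 had thus moved from below CNFN and KRT74 to above both.

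**Figure D1:**
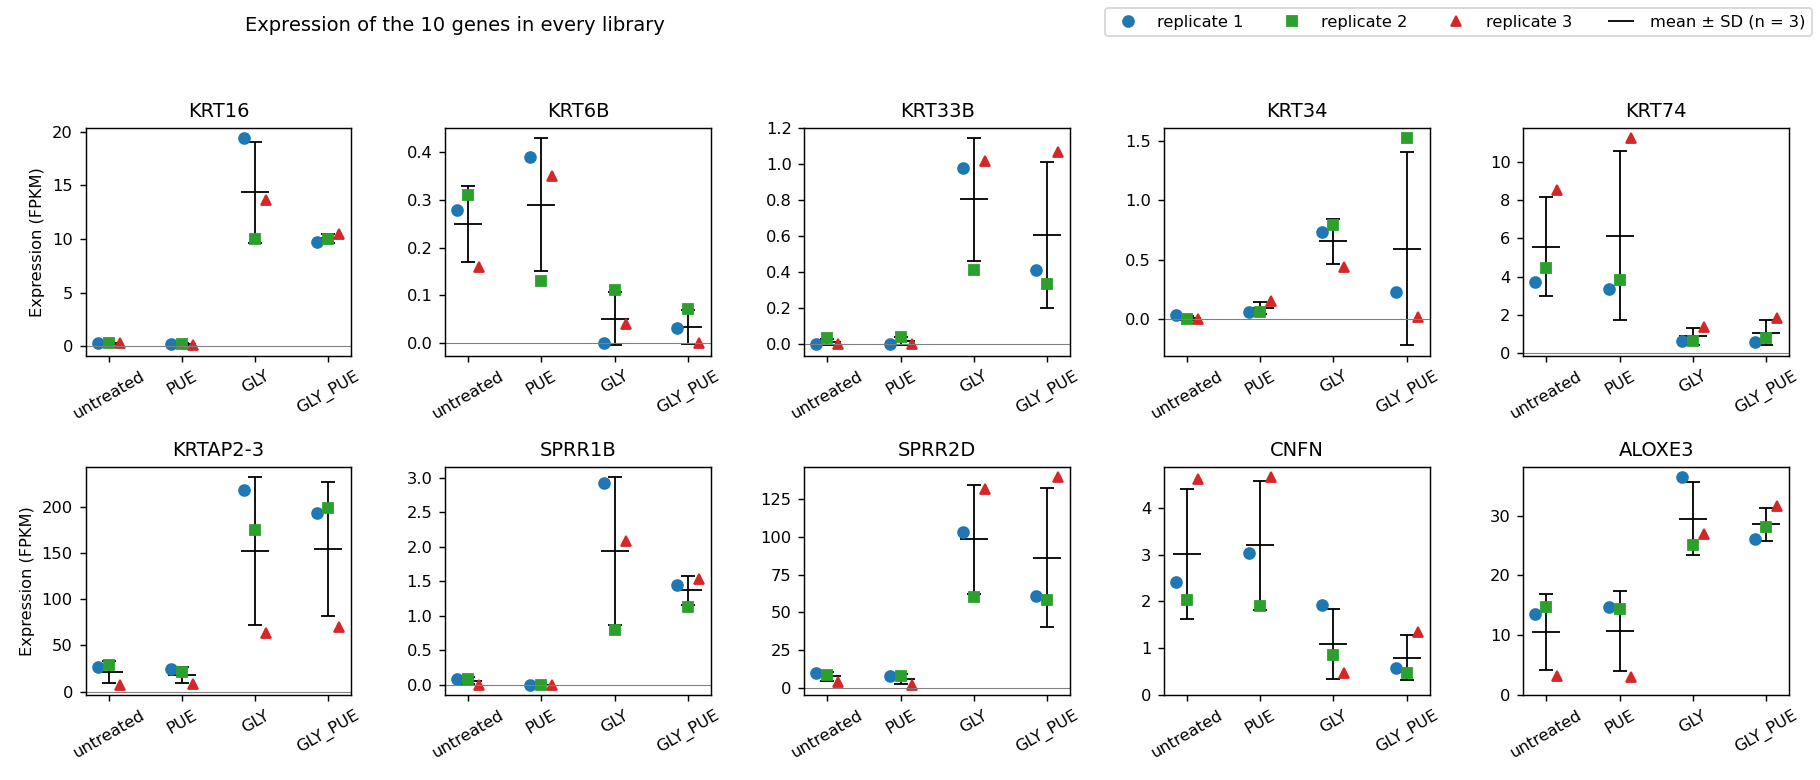
Expression (FPKM, linear axes of different height) of the 10 genes in the 12 libraries, with symbols for replicates 1, 2 and 3 and the mean ± SD of each group of 3. The GLY and GLY_PUE libraries lie above the untreated ones for 6 genes in every library and below them for KRT6B, KRT74 and CNFN, while KRT34 overlaps between GLY_PUE and untreated. Replicate 3 stands apart for KRT74, KRTAP2-3, SPRR2D and ALOXE3.

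With GLY, 7 of the 10 genes were higher than in untreated cells in every library and 3 were lower in every library, against 17.1% of all 3699 genes higher without overlap and 64.6% lower. With GLY_PUE the counts were 6 and 3, against 21.1% and 64.3%. Because the genes were chosen on these contrasts, nothing is read from those counts. The median log2 fold change of the 10 genes was 3.29 with GLY and 3.20 with GLY_PUE, beside medians of -1.15 and -1.03 over all 3429 genes tested. These 2 comparisons share the untreated libraries.

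The size of every one of these differences depends on the scaling. TMM scaling moved all 10 by more than 1.5-fold with either treatment, upwards on the log2 scale, and turned no direction. With GLY the TMM values were 6.70 for KRT16, 4.83 for SPRR2D, 4.03 for KRTAP2-3 and 2.62 for ALOXE3. The lower genes came nearer to 0, at -1.48 for KRT74, -1.25 for KRT6B and -0.23 for CNFN. With GLY_PUE they were 5.99 for KRT16, 4.46 for SPRR2D, 3.85 for KRTAP2-3, 2.37 for ALOXE3, -1.35 for KRT74, -2.10 for KRT6B and -0.90 for CNFN. The values given for each gene below are by total reads.

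KRT16, a type I keratin of wounded and hyperproliferative epidermis, had the widest separation of groups among the keratins with reads in every library. Its read counts were 12, 9.6 and 10 in untreated replicates 1 to 3, 9, 8.85 and 3.08 with PUE, 690.57, 360.62 and 487.68 with GLY, and 348.42, 357.83 and 373.12 with GLY_PUE. All 6 libraries with GLY lay far above all 6 without it, and GLY replicate 1 was the highest of all. The log2 fold change was 5.50 (SE 0.38) with GLY, a 45.2-fold difference, and 4.99 (SE 0.37) with GLY_PUE, a 31.7-fold difference. Within replicates 1, 2 and 3 the GLY libraries had 55.0, 35.4 and 46.4 times the untreated level. Of the 50-base stretches of the KRT16 transcript, 22.0% also occur in other genes, chiefly the pseudogene KRT16P3 (13.0%) and KRT14 (11.3%), so its reads may be divided among copies. KRT14 itself, the type I keratin of basal epidermis, was not called with GLY, a call being an adjusted p under 0.05 by edgeR's quasi-likelihood test over all 3429 genes tested (log2 fold change 0.63, SE 0.68, adjusted p = 0.382 by edgeR).

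KRT6B, a type II keratin that pairs with KRT16, went the other way and was scarce throughout. Its estimated counts were 12.56, 13.97 and 7.36 in untreated libraries, 17.59, 5.87 and 15.36 with PUE, 0, 5.33 and 2.1 with GLY, and 1.35, 3.11 and 0 with GLY_PUE. Every GLY and GLY_PUE library lay below every untreated library, although PUE replicate 2 came close to GLY replicate 2. The log2 fold change was -2.29 (SE 0.83) with GLY and -3.04 (SE 0.90) with GLY_PUE. It was -3.42 without GLY replicate 2, and with GLY_PUE it was -4.26 without GLY_PUE replicate 2. The near-identical KRT6A, which shares 28.9% of the 50-base stretches of KRT6B, was higher with GLY (log2 fold change 2.14, SE 0.22, adjusted p = 2.73e-05 by edgeR). KRT6C, which shares 44.8%, had 0 reads in the untreated libraries and 8.65, 3.21 and 2.36 with GLY. Whether the authors' counting moved reads between these 3 genes was not tested.

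KRT33B and KRT34 are type I hair keratins, and their genes are next to each other on chromosome 17 in RefSeq's order. Both promoters, taken from RefSeq (GRCh38.p14), are printed because the genes are neighbours that were near 0 reads without GLY. Each runs 5′ to 3′ over the 250 bases before the start, with the motif TATAAA in capitals. The KRT33B window is chr17:41369814-41370063 on the minus strand and the KRT34 window is chr17:41382307-41382556 on the minus strand.
KRT33B: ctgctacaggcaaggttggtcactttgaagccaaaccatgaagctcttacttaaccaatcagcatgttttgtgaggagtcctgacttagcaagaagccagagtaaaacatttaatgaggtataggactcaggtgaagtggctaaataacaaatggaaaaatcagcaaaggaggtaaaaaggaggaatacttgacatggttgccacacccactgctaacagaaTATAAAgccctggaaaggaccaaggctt
KRT34: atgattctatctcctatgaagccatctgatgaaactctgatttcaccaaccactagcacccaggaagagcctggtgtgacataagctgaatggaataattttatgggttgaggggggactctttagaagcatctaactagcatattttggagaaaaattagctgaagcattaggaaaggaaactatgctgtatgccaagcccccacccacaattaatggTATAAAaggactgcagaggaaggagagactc
The TATAAA match begins 28 bases before the start in KRT33B and 31 bases before it in KRT34. TATAAA, searched on both strands, was in 10.7% of the 35116 windows of the same length. A match is a description of the letters and not a measured site.

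KRT33B had 0, 1 and 0 reads in untreated libraries, 0, 1.33 and 0 with PUE, 32.68, 13.9 and 33.99 with GLY, and 13.6, 10.99 and 35.35 with GLY_PUE. The 6 libraries with GLY all had over 10 reads and the 6 without had almost none. Over the groups this was 81 reads against 1, a depth-scaled ratio of 76.9 whose 95% counting interval runs from 13.4 to 3075, and for GLY_PUE a ratio of 57.1 (9.87 to 2293). Intervals here cover counting error only. KRT34 had 1, 0 and 0 reads in untreated libraries, 2, 2 and 5 with PUE, 25.93, 28.41 and 15.57 with GLY, and 8.11, 54.02 and 0.83 with GLY_PUE. Its GLY libraries were all high, but the GLY_PUE libraries ran from the highest value to one within the untreated range. The ratio was 66.5 (11.6 to 2663) for GLY, from 70 reads against 1, and 60.0 (10.4 to 2405) for GLY_PUE. The fitted GLY_PUE log2 fold change of KRT34 fell from 5.46 to 3.27 without GLY_PUE replicate 2. KRT33B shares 27.7% of its 50-base stretches with other genes, mostly the hair keratin KRT33A (18.0%), and KRT34 shares 11.4%.

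KRT74, a type II keratin of the inner root sheath that surrounds the growing hair, was the most abundant keratin of the 10 in untreated cells. It is shown with the 250 bases before its start (chr12:52573844-52574093, minus strand, GRCh38.p14, from RefSeq) as a member that was lower. None of the TATA, AP-1, CRE and GC box motifs spelled out beside the other promoters is in this window, so no letter is in capitals.
KRT74: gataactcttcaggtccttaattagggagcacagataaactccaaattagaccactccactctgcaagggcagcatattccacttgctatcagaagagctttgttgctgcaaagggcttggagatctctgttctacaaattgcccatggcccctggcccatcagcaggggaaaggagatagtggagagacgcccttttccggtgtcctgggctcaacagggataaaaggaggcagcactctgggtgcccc
The read counts were 209, 245.66 and 475.34 in untreated libraries, 185.28, 214.97 and 607.74 with PUE, 38.32, 37.46 and 82 with GLY, and 36, 46 and 106.38 with GLY_PUE. Replicate 3 was the highest in all 4 groups, and all libraries with GLY lay below all those without. Against untreated, KRT74 had a log2 fold change of -2.64 (SE 0.58) with GLY and -2.37 (SE 0.58) with GLY_PUE, or -2.99 with GLY_PUE when its replicate 3 was left out. Within replicates 1, 2 and 3 the GLY libraries had 0.175, 0.144 and 0.164 of the untreated level, a narrower spread than the replicates show between them. KRT74 shares 1.5% of its 50-base stretches with other genes.

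KRTAP2-3 encodes a high-sulphur protein of the hair shaft matrix and had the highest mean FPKM of the 10 genes in every group. Its promoter (chr17:41060115-41060364, minus strand, GRCh38.p14, from RefSeq) is printed because it was the member with most reads under GLY, again with TATAAA in capitals, here 28 bases before the start.
KRTAP2-3: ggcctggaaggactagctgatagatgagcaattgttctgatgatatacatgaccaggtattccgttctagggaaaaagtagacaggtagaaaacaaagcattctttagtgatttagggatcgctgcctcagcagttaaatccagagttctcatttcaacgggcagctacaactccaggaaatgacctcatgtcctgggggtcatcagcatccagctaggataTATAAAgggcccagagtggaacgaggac
It had 439.18, 473.9 and 121 reads in untreated libraries, 402.5, 357 and 129 with PUE, 3767.02, 3035.67 and 1106 with GLY, and 3364.49, 3444.37 and 1209.3 with GLY_PUE. Replicate 3 was the lowest in all 4 groups, yet the lowest library with GLY was above the highest without. With GLY its log2 fold change was 2.86 (SE 0.64), and with GLY_PUE it was 2.88 (SE 0.64). Within replicates the GLY libraries had 8.20, 6.03 and 8.70 times the untreated level. KRTAP2-3 shares 39.5% of its 50-base stretches with its neighbour KRTAP2-4, and the values may hold reads of both. KRTAP2-2, the neighbour on the other side, had 0 reads in the untreated libraries and 6.98, 6.33 and 3 with GLY.

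SPRR1B and SPRR2D are cross-linked precursors of the cornified envelope and lie side by side on chromosome 1 in RefSeq's order. The 250 bases before the SPRR1B start (chr1:153030953-153031202, plus strand, GRCh38.p14, from RefSeq) are printed because SPRR genes are known targets of AP-1, the family of FOS and JUN proteins, several of which are in the table. The AP-1 motif TGANTCA is in capitals.
SPRR1B: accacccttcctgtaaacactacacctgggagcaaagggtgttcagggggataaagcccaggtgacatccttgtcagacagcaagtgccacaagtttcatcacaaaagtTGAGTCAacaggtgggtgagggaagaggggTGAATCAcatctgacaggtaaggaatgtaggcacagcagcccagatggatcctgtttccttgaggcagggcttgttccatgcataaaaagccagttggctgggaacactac
There are 2 matches, TGAGTCA from 141 to 135 bases and TGAATCA from 111 to 105 bases before the start. TGANTCA on either strand was in 6.6% of all 35116 windows and in 2 of the 9 windows of the 7 members found in the promoter table, SPRR1B and 1 of 3 windows of ALOXE3. The CRE motif TGACGTCA was in 0 of the 9 and in 1.6% of all windows, and the GC box GGGCGG was in 2 of the 9 (ALOXE3 and CNFN) and in 42.6%. These letters say nothing about whether a factor was bound.

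SPRR1B had 1, 1 and 0 reads in untreated libraries, 0 in all 3 PUE libraries, 35.97, 10 and 26 with GLY, and 17.89, 14 and 19 with GLY_PUE. All libraries with GLY had at least 10 reads and none without GLY had more than 1. Over the groups the ratio to untreated was 34.2 (9.13 to 288) for GLY, from 72 reads against 2, and 24.3 (6.38 to 206) for GLY_PUE. SPRR2D was far more abundant, with 128.47, 111 and 53.02 reads in untreated libraries, 102, 100.74 and 24.82 with PUE, 1412.57, 830.11 and 1818.85 with GLY, and 842.88, 793.9 and 1903.3 with GLY_PUE. Replicate 3 was the lowest of its group without GLY and the highest of its group with GLY. The log2 fold change of SPRR2D was 3.72 (SE 0.57) with GLY and 3.53 (SE 0.57) with GLY_PUE, the latter 2.70 without replicate 3 of every group. SPRR2D shares 26.8% of its 50-base stretches with other genes, SPRR2B first (17.6%), and SPRR1B shares 4.4%.

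CNFN encodes cornifelin, a minor component of the cornified envelope, and was lower with GLY. It had 25, 20 and 46 reads in untreated libraries, 30, 19 and 45 with PUE, 20, 9 and 5 with GLY, and 6, 5 and 14 with GLY_PUE. The GLY and untreated libraries touch, since untreated replicate 2 and GLY replicate 1 both had 20 reads and are separated only by library size. The log2 fold change was -1.48 (SE 0.57) with GLY and -1.92 (SE 0.58) with GLY_PUE. The first was -2.17 without GLY replicate 1 and -0.70 without replicate 3 of every group, and the second was -2.51 without GLY_PUE replicate 3. Under TMM scaling the GLY value was -0.23. None of its 50-base stretches occurs in another gene.

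ALOXE3, the epidermal lipoxygenase that converts lipid hydroperoxides in the making of the barrier, had 857, 931 and 201 reads in untreated libraries, 927, 895 and 182 with PUE, 2408, 1685 and 1813 with GLY, and 1712, 1858 and 2087 with GLY_PUE. Replicate 3 was several times lower than its fellows without GLY and level with them with GLY. Its log2 fold change was 1.49 (SE 0.57) with GLY and 1.43 (SE 0.57) with GLY_PUE. Within replicates 1, 2 and 3 the GLY libraries had 2.69, 1.70 and 8.59 times the untreated level. ALOXE3 shares no 50-base stretch with another gene, and its counts were whole numbers in every library.

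**Figure D2:**
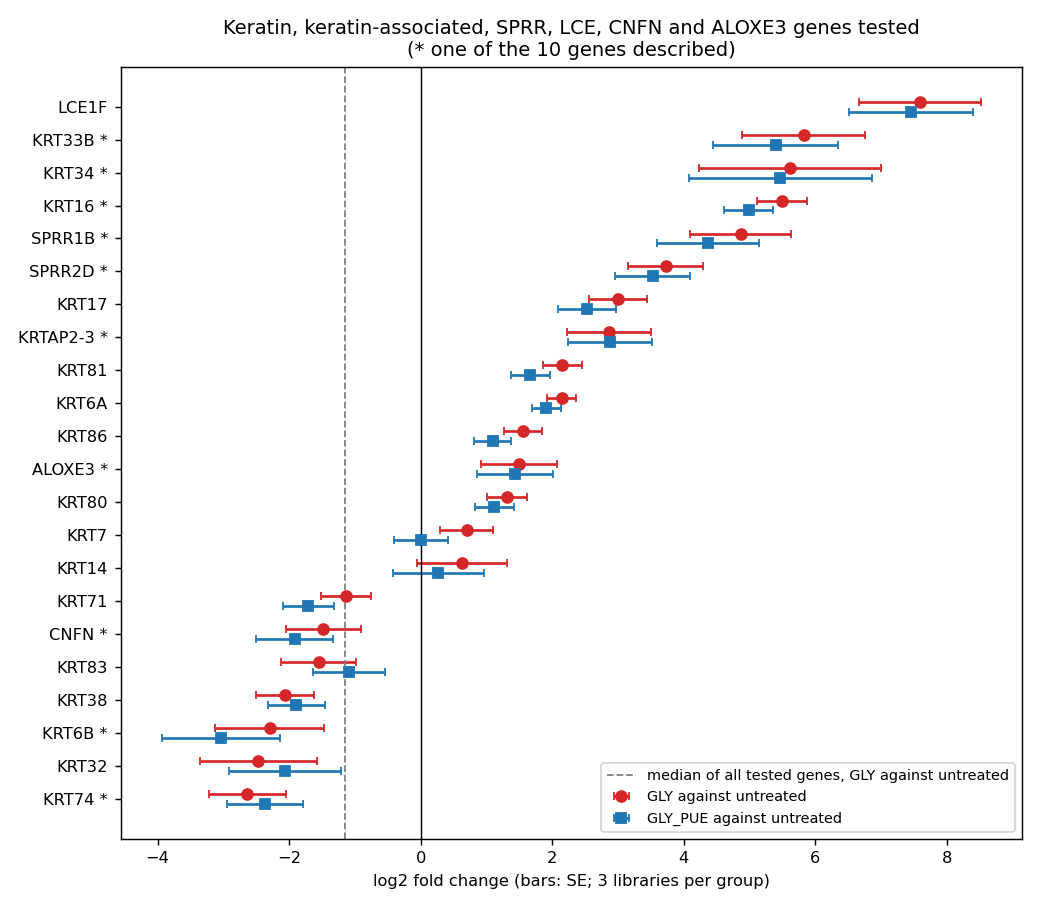
Fitted log2 fold changes against untreated with GLY (circles) and GLY_PUE (squares) of the 10 genes, marked with an asterisk, and of 12 other KRT and LCE genes that were tested; bars are SE from 3 libraries per group and the dashed line is the median of all tested genes, -1.15. The changes run from -2.64 (KRT74) to 7.59 (LCE1F) with GLY, and the fitted values of LCE1F, KRT33B, KRT34 and SPRR1B rest on 0 to 2 untreated reads and depend on the prior count.

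No difference between PUE and untreated cells was detected for the 10 genes. By edgeR's quasi-likelihood test 0 of 10 passed, each with an adjusted p = 0.999996, and 0% of the 3429 genes tested passed (0 genes, with 12 at an unadjusted p under 0.05). DESeq2 and limma also called 0. KRT16 was lower in every PUE library than in every untreated one, as were 1.84% of all genes, with a log2 fold change of -0.59 and a 95% interval of -1.5 to 0.32. KRT34 was higher without overlap, as were 1.68% of all genes, from 9 reads against 1. For the members with the most reads the intervals were -1.52 to 1.09 for KRTAP2-3, -1.21 to 1.23 for ALOXE3, -1.51 to 0.81 for SPRR2D and -1.03 to 1.31 for KRT74. Same-numbered PUE and untreated libraries deviated together, and with the replicate number as a block the intervals were -0.57 to 0.27 for KRTAP2-3, -1.10 to 1.11 for ALOXE3, -1.62 to 0.92 for SPRR2D and -0.40 to 0.43 for KRT74. In a blocked fit of the untreated and PUE libraries alone, chosen after seeing the data, the same intervals were narrower. They were -0.40 to 0.03 for KRTAP2-3, -0.14 to 0.14 for ALOXE3, -0.75 to -0.03 for SPRR2D and -0.19 to 0.31 for KRT74. SPRR2D, at a log2 difference of -0.39 (SE 0.16), had fewer reads with PUE in 3 of 3 pairs, and with adjusted p = 0.972 by edgeR it was not called. That fit called 1 gene, CORO7-PAM16, a readthrough transcript of 2 neighbouring genes and no member.

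Adding PUE to GLY gave no call either. By edgeR 0 of 10 members passed between GLY_PUE and GLY, as did 0% of the 3429 genes (0 genes, with 57 below 0.05 before adjustment). DESeq2 and limma likewise called 0. Of the 10 log2 differences 8 were below 0, beside a median of 0.11 over all 3429 genes. The members were chosen on their levels with GLY, so nothing is read from that count. There were 0 members whose groups did not overlap, against 5.52% of all genes. KRT16 was lower by edgeR's estimate of -0.51 (SE 0.30, 95% interval -1.15 to 0.13, adjusted p = 0.959), with GLY replicate 2 inside the GLY_PUE range. The authors' deposited table gives KRT16 the same log2 ratio, -0.51, with a q-value of 1.96e-18, and SPRR2D a log2 ratio of -0.20 with a q-value of 1.14e-08. For SPRR2D the edgeR interval was -1.29 to 0.91, for KRTAP2-3 -1.26 to 1.30, and for ALOXE3 -1.27 to 1.15.

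The same replicate number stood out in several groups. What a number marks is not stated in the labels. Replicates 3 against replicates 1 and 2, fitted with the 4 groups as a term by edgeR, gave a call for 2 of 10 members, against 23.4% of all tested genes. That comparison was set because earlier results of these data had replicates 3 standing apart in every group. Its p-values are thus no independent evidence of a shift. KRTAP2-3 was lower in replicates 3 by a log2 difference of -1.63 (SE 0.15, adjusted p = 0.000106) and in 4 of 4 groups. KRT74 was higher by 1.31 (SE 0.14, adjusted p = 0.000254) and also in 4 of 4 groups. With and without GLY the shift was -1.55 and -1.72 for KRTAP2-3, a difference of 0.16 (95% interval -0.37 to 0.69, adjusted p = 0.810 by edgeR), and 1.25 and 1.36 for KRT74, a difference of -0.10 (-0.73 to 0.53, adjusted p = 0.917). With replicate 3 of every group left out, their GLY values were 2.82 and -2.67. Without GLY replicate 1 the call extended to KRT33B and CNFN, 4 members in all, and to 1656 genes in place of 804. The number of genes fell to 340 without untreated replicate 3 and to 346 without PUE replicate 3, with KRTAP2-3 and KRT74 both still called.

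ALOXE3 and SPRR2D behaved differently, and the test of that difference was chosen after seeing the data. The ALOXE3 level in replicates 3 was lower by -2.22 (SE 0.21) on the log2 scale in the untreated and PUE libraries and differed by 0.03 (SE 0.18) in the GLY and GLY_PUE libraries. The difference between these shifts was 2.26 (SE 0.27, adjusted p = 0.0110 by edgeR). For SPRR2D the shift was -1.54 (SE 0.30) without GLY and 0.97 (SE 0.25) with GLY, a difference of 2.51 (SE 0.39, adjusted p = 0.0144). These were 2 of 10 members, against 3.35% of all tested genes. The ALOXE3 difference was no longer called without untreated 1, untreated 3, PUE 1, PUE 2, PUE 3, GLY 3 or GLY_PUE 2, and the SPRR2D difference without those or GLY_PUE 3. Over these alternatives the values stayed between 2.04 and 2.46 for ALOXE3 and between 2.15 and 2.95 for SPRR2D, with adjusted p up to 0.138 and 0.156. The GLY libraries numbered 3 are also those labelled 14 h, so time and number cannot be told apart within GLY, while the GLY_PUE libraries are all labelled 12 h.

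**Figure D3:**
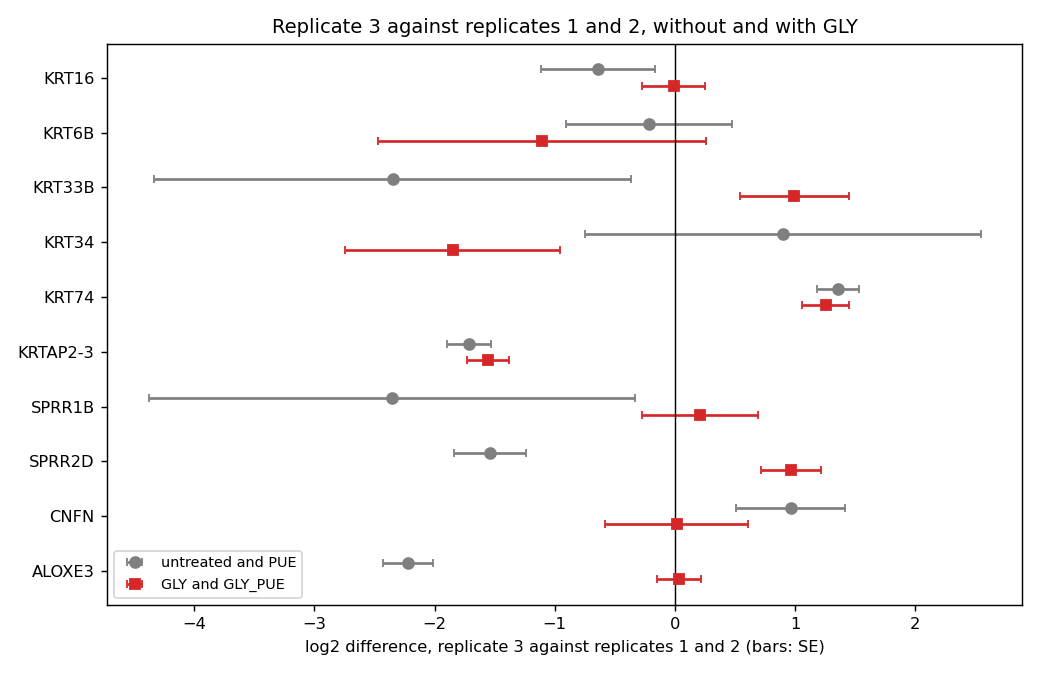
Log2 difference between replicate 3 and replicates 1 and 2 for the 10 genes, fitted separately in the untreated and PUE libraries (grey circles) and in the GLY and GLY_PUE libraries (red squares); bars are SE. KRT74 and KRTAP2-3 have shifts that lie within 1 SE of each other, whereas ALOXE3 moves from -2.22 to 0.03 and SPRR2D from -1.54 to 0.97; the wide bars of KRT33B, KRT34 and SPRR1B come with 0 to 5 reads per library without GLY.

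The rest of the keratin, SPRR and LCE families gave 19 further genes in the table, of which 12 had enough reads to be tested. The read filter needs reads in some libraries only. LCE1F and KRT17 entered through the libraries with GLY, and KRT32, KRT38 and KRT83 through those without. Their calls were partly set by that filter, so nothing is read from the counts of calls. With GLY 6 of the 12 were higher and 4 lower by edgeR, against 19.7% of all tested genes higher and 64.6% lower. With GLY_PUE 6 were higher and 3 lower, against 20.2% and 57.1%. Under TMM scaling, which moves the median of all tested genes up by 1.13 with GLY and 1.01 with GLY_PUE, these became 7 and 0 and 6 and 0. The higher ones were the epidermal keratins KRT17 (log2 fold change 3.00, SE 0.44) and KRT6A (2.14, SE 0.22), the hair keratins KRT81 (2.15, SE 0.30) and KRT86 (1.55, SE 0.28), KRT80 (1.31, SE 0.30), and LCE1F. KRT17, a keratin of injured skin whose gene is next to KRT16, had 15, 8 and 8 reads in untreated libraries and 102.41, 54.4 and 107.47 with GLY. LCE1F, a late cornified envelope gene, had 0 reads in the 3 untreated libraries and 35.01, 15 and 23.79 with GLY. KRT81 and KRT86 share 38.4% and 33.3% of their 50-base stretches with each other, so their reads may be divided between them.

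The lower ones with GLY were the hair keratins KRT38 (-2.07, SE 0.44), KRT32 (-2.47, SE 0.89) and KRT83 (-1.56, SE 0.57), and KRT71 (-1.14, SE 0.38), an inner root sheath keratin beside KRT74. KRT71 was at the median of all tested genes and changed sign under TMM scaling. KRT38 had 33.9, 19.92 and 39.14 reads in untreated libraries and 8, 8 and 7 with GLY. KRT7, a keratin of glandular epithelia, was not called by total reads (0.70, SE 0.41, adjusted p = 0.120) but was under TMM scaling (1.89, adjusted p = 0.00983). KRT14 was not called under either. The 7 that were not tested (KRT6C, KRT33A, KRT36, KRT37, KRT85, KRTAP2-2 and LCE1A) had at most 17.86 reads in any library.

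**Figure D4:**
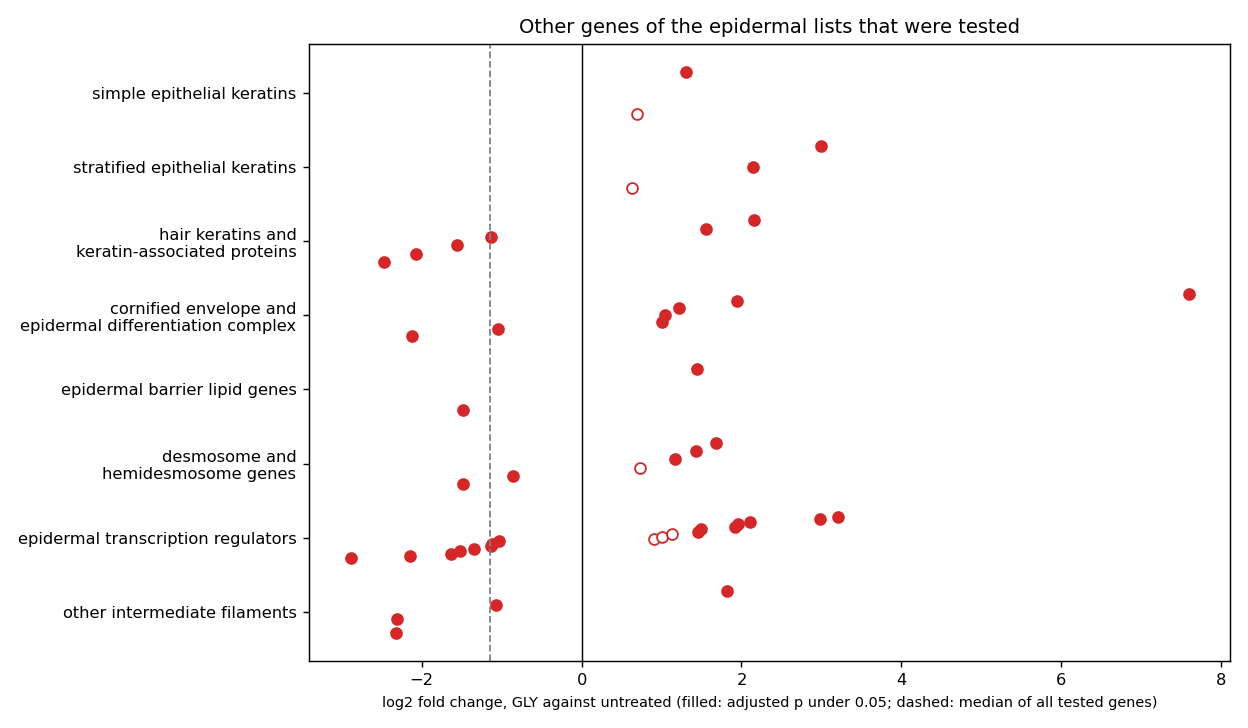
Log2 fold change with GLY against untreated of the 48 tested genes of 8 lists that are not among the 10, 1 point per gene; filled points have an adjusted p under 0.05 and the dashed line is the median of all tested genes, -1.15. Points lie on both sides of 0 in 6 of the 8 lists, and the untested remainder of each list is not shown.

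Across 8 lists of epidermal genes, chosen with earlier results of these data known, 59 genes other than the 10 were in the table and 48 were tested. Among them are LCE1F, KRT17, KRT32, KRT38 and KRT83, which entered the test as described above. Nothing is read from these counts of calls either. With GLY 22 of the 48 were higher and 20 lower, against 19.7% and 64.6% of all tested genes. With GLY_PUE they were 24 and 17, against 20.2% and 57.1%. Under TMM scaling the counts were 27 and 3, and 26 and 2. That scaling called 1158 of all tested genes with GLY and 1211 with GLY_PUE, both directions together. Of 7 tested cornified envelope genes 5 were higher and 2 lower by total reads, with a median of 1.05, and 5 and 0 under TMM and RLE scaling, so that no lower call remained: the calcium-binding protein S100A2 (1.94, SE 0.29) and annexin ANXA1 (1.22, SE 0.33), a transglutaminase substrate, were higher, and trichohyalin TCHH (-2.13, SE 0.37), a matrix protein of the inner root sheath, was lower by total reads but not called under TMM scaling (-1.04, adjusted p = 0.0695). KLK7, a protease of skin shedding, changed sign under TMM scaling (-1.05, SE 0.35, by total reads). Among the barrier lipid genes, the ichthyosis gene NIPAL4 was higher (1.44, SE 0.38).

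Of 18 tested transcription regulators and growth factors of epidermis 7 were higher, 8 lower and 3 not called with GLY by total reads, with a median of 0.96, beside the 19.7% and 64.6% of all tested genes. Under TMM and RLE scaling 10 were higher and 1 lower, so the balance of the list rests on the scaling. HBEGF, a ligand of the EGF receptor, had 226, 222 and 100 reads in untreated libraries and 1467, 1567 and 1544 with GLY (log2 fold change 2.99, SE 0.38, adjusted p = 8.40e-05 by edgeR). CEBPB, a transcription factor of differentiating keratinocytes, was also higher (1.46, SE 0.22). The vitamin D receptor gene VDR was lower by total reads (-1.63, SE 0.26) but not called under TMM scaling (-0.47, adjusted p = 0.170). Of the AP-1 genes, named here because of the motif in the SPRR1B promoter and with their values known, FOSL1 (1.91, SE 0.51), JUN (1.5, SE 0.43) and ATF3 (1.96, SE 0.42) were higher and FOSB was not called by total reads (1.13, SE 0.57, adjusted p = 0.0763), though it was under TMM scaling (2.27, adjusted p = 0.0183). FOSL1 had 8421, 9502 and 2459 reads in untreated libraries and 37329, 24813 and 18823 with GLY, and its replicate 3 was the lowest of both groups.

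Of 6 tested desmosome and hemidesmosome genes 3 were higher, 2 lower and 1 not called with GLY by total reads. Of all tested genes 19.7% were higher and 64.6% lower. Under TMM and RLE scaling 4 of the 6 were higher and 0 lower. The laminin chain LAMB3 (1.43, SE 0.50) and plectin PLEC (1.17, SE 0.41), which anchors keratin filaments, were among those higher. The desmosomal cadherin DSC2 was lower by total reads (-1.49, SE 0.39) but not called under TMM scaling (-0.39, adjusted p = 0.463), and PKP1 changed sign under TMM scaling. Of 4 other intermediate filament genes, the neuronal filament gene PRPH was higher (1.82, SE 0.39), and LMNB1 (-2.31, SE 0.34), a chain of the nuclear lamina, and SYNM (-2.32, SE 0.49) were lower. DES was lower by total reads (-1.07, SE 0.46) and changed sign under TMM scaling.

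The genes nearest in pattern to each member were found by the root mean square difference over the 12 libraries. It was taken on log2 scaled counts (prior count 2) centred on the untreated mean. This was done for the 9 members with a mean of at least 10 reads, and the untreated centring makes the size of the GLY difference weigh heavily. The nearest were TAGLN3 for KRT16 (0.54 log2 units), COL6A2 for KRT33B (0.24), FAM25A for KRT34 (1.06), C21orf58 for KRT74 (0.23) and HMOX1 for KRTAP2-3 (0.41). For the cornified envelope genes and the lipoxygenase they were CHST1 for SPRR1B (0.39), KCNF1 for SPRR2D (0.45), AZGP1 for CNFN (0.23) and PPP1R15A for ALOXE3 (0.25). KRT34 had no gene closer than 1.06, and its GLY_PUE libraries were also the most uneven. The prior count shrinks the differences of members with few untreated reads, so a small distance there need not mean a like fold change. COL6A2 had a mean of 0.463 CPM untreated and 5.39 with GLY, and KRT33B had 0.0166 and 1.26.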

How the data were processed

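RNA of 12 SW480 libraries (0.5 µg each) was sequenced on BGISEQ-500, per the labels' protocols. The authors deposited 1 table of 3699 genes, 3647 of them mRNA. Checked on its values, every gene passed both a deposited q-value limit of 0.001 and a deposited log2 ratio limit of 1 in either direction in some comparison of the authors. Per the file headers it holds read counts, which are estimated counts (58.2% whole) deposited without normalization, and expression values whose unit the authors do not give and which behave as FPKM. The submitters' processing notes name TopHat and DESeq 1.32.0 but no step for either. Which counter, build and gene annotation were used is not given in the sources used here.

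Count divided by FPKM over 625 genes gave the relative library totals. Their scale came from 39 genes with a single transcript in GENCODE 29 (20.2 M for untreated replicate 1, interval 20.0 to 20.7). Counts were rounded and fitted with edgeR 4.0.16 (R 4.3.3) quasi-likelihood with these totals as library sizes, over the 3429 genes that passed filterByExpr, which all 10 members did, with Benjamini-Hochberg adjustment over 3429 and a threshold of 0.05. The script for the main fit was tested on simulated data with changes set in the GLY libraries. It recovered 14.4% of the 2-fold and 81.6% of the 4-fold changes, with 3 false calls among 3344 genes. Differences of about 2-fold can therefore be missed, also in the comparisons where 0 genes were called. This main fit held all 12 libraries, which shared an estimate of the spread. Tried besides were DESeq2 1.42.0, RLE and TMM scaling, limma 3.58.1 on log2(FPKM + 0.1), other filters and a prior count of 2. Also tried were fits of only the 2 groups compared, a replicate block, and leaving out libraries. Fits with separate shifts for replicates 3, with a term for them, and with the replicate block in only the untreated and PUE libraries were chosen after seeing the data. Samples with the same number deviated together in PUE and untreated (r of 0.484, 0.389 and 0.702), as seen from the data alone. In GLY_PUE and untreated r was lower (0.194, 0.193 and 0.382). The main fit used no pairing.

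The 10 members and all gene lists were chosen with earlier results of these data known. Named genes were the members, KRT, SPRR and LCE genes, near-identical genes, up to 4 tested genes per list with the smallest p in GLY against untreated, and the genes nearest in pattern. Some genes that this rule names are not reported here. KLK7, PKP1, FOSL1, JUN, ATF3 and FOSB were named after their values were seen. Promoters came from RefSeq (GRCh38.p14), where 7 of 10 members matched, and shared stretches of 50 bases from the longest GENCODE 29 transcripts. BER and WOG, named in the labels' protocols, were not analysed here.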

Additional observations from a re-analysis of the deposited data

Results flagged for a closer look

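The shift of replicates 3 against replicates 1 and 2 differed between libraries with and without GLY for 2 members, by an edgeR test of the difference chosen after seeing the data. For SPRR2D the difference was 2.51 on the log2 scale (SE 0.39, adjusted p = 0.0144), and replicate 3 was the lowest of its group in 2 of 2 groups without GLY and the highest in 2 of 2 groups with GLY. For ALOXE3 it was 2.26 (SE 0.27, adjusted p = 0.0110), and replicate 3 was the lowest in 2 of 2 groups without GLY. What the replicate numbers mark is not stated, and no cause was tested.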

How the results depend on the processing

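No member changed direction with GLY or GLY_PUE against untreated under any of the alternatives run. A member that a filter or omission left untested has no value there. TMM and RLE scaling within the table reduced the genes called from 2890 to 1158 and 1188 with GLY and from 2651 to 1211 and 1234 with GLY_PUE. They reduced the listed genes called lower from 20 to 3 and 3, and from 17 to 2 and 2. Without replicate 3 of every group, 13 listed genes were lower with GLY. Over single libraries left out, the genes called were 2406 to 2941 with GLY and 2132 to 2995 with GLY_PUE, the listed genes higher 19 to 24 and 18 to 26, and the listed genes lower 15 to 23 and 13 to 19. The genes called in GLY_PUE against GLY were 0 to 1, the 1 being without GLY_PUE replicate 2. For replicates 3 against the others the genes called were 340 to 1656 (346 without PUE replicate 3) and the members called 2 to 4, and the members whose shift differed with GLY were 0 to 2. The causes were not tested. The replicate block changed no member call, with 0 members called for PUE and for GLY_PUE against GLY and 2 for replicates 3, and no count by more than 1.5 times (3086 genes called with GLY, 2926 with GLY_PUE, 748 for replicates 3, and 0 for the other 2 comparisons). For same-numbered libraries, r was 0.056, 0.097 and 0.271 in GLY and untreated, and 0.078, 0.304 and 0.316 in GLY_PUE and GLY. It was 0.194, 0.193 and 0.382 in GLY_PUE and untreated, and the labels state no pairing for any of them. DESeq2 also called ALOXE3 for replicates 3 (-0.94). A blocked fit of the untreated and PUE libraries alone, chosen after seeing the data, called 1 gene and 0 members for PUE. Depth limits KRT33B, KRT34, SPRR1B and KRT6B. With limma on log2(FPKM + 0.1) the GLY and GLY_PUE values were 2.96 and 2.54 for KRT33B and 2.75 and 1.87 for KRT34, and the GLY_PUE value of KRT6B was -1.40. With a prior count of 2 those of SPRR1B were 3.24 and 2.79.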
